A study of Mus musculus with 2 samples.

Results

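Replication-type histone genes are the clustered genes that supply the bulk of the histones packed onto newly made DNA. Here they were taken as every gene of the count tables whose symbol starts with Hist1h, Hist2h, Hist3h or Hist4, without use of any measured value, which gave 67 of 26124 genes. By their symbols, 6 encode the linker histone H1, 18 the core histone H2A, 18 H2B, 12 H3 and 13 H4. In the annotation (GENCODE M21 on GRCm38), 54 of the 67 lie on chromosome 13, 10 on chromosome 3, 2 on chromosome 11 and 1 on chromosome 6.

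The study set the spleen of a mouse with sickle cell disease (SCD) against that of a non-sickling control. Spleen cells that bound F4/80 antibody-coated magnetic beads, after lysis of mature erythrocytes, were sequenced with the 10x Genomics 3′ kit (v3.1) in 2 libraries, 1 mouse each. Mice were 12 to 16 weeks old and untreated. The mouse labelled wild-type was Hba-/- (allele Hbatm1Paz), Hbb+/- (allele Hbbtm1Tow) and hemizygous for the transgene Tg(HBA-HBBs)41Paz, and the mouse labelled SCD was homozygous for all 3 (Hba-/-, Hbb-/-, Tg/Tg). By these labels both lacked the mouse α-globin genes and carried the human globin transgene, including the sickle β-globin.

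The β-globin genes went against these labels. Levels are given as CPM, the UMIs of a gene in a group of cells scaled to a total of 1000000 UMIs. Hbb-bs had a level of 175 CPM in the erythroid-like cells of the wild-type-labelled library and of 70412 CPM in the SCD-labelled library, whose mouse should lack it. Hba-a1, an α-globin gene absent by both genotypes, was at 33822 and 38338 CPM. The libraries are therefore named by their labels, and no direction given here can be tied to a genotype. The wild-type-labelled library held 145953464 UMIs (reads collapsed to single molecules) in 24144 barcodes and the SCD-labelled one 73986356 UMIs in 15442 barcodes. After filtering, 19419 and 12280 cells were kept, at a median of 4115 and 4570 UMIs. The libraries shared 107 barcodes, 65 of them among kept cells. With 1 mouse per condition there is no replicate check and no test. The intervals in brackets are 95% exact Poisson intervals for levels, exact binomial intervals for shares, and exact conditional intervals for ratios, and cover counting error only.

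As background, core histones H2A, H2B, H3 and H4 form the nucleosome around which DNA is wound, and the linker histone H1 binds where DNA enters and leaves it. Transcription of the replication-type genes is coupled to S phase, when the genome is copied, and their mRNAs end in a stem-loop, bound by the protein Slbp, in place of a poly(A) tail. Some members also give polyadenylated transcripts, in particular in cells that have stopped dividing. The spleen of an anaemic mouse is a site of erythropoiesis, where erythroblasts divide while attached to macrophages in erythroblastic islands. Since the kit primes on poly(A), the libraries held an unknown part of each member's mRNA, and a UMI is counted once per captured molecule whatever the transcript's length.

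The stem-loop that sets these mRNAs apart was found in the annotated transcripts of 44 of the 67 members. It lay 21 to 58 bases after the stop codon, and 26 of the 44 had one and the same sequence. The forms carried by 5 members with many UMIs, and by Hist1h2ap, which the libraries turn on below, are shown with up to 5 bases on either side. They were read from the GENCODE M21 transcripts (GRCm38) on the strand of the gene, and the capitals mark the stem, the loop of 4 bases and the second arm of the stem:
Hist1h1c (H1, chr13:23739507-23739532, + strand): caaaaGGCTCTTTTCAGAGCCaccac
Hist1h1d (H1, chr13:23555782-23555807, + strand): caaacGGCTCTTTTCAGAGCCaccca
Hist1h2ap (H2A, chr13:21833026-21833049, - strand): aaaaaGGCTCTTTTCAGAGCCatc
Hist1h3c (H3, chr13:23745042-23745067, - strand): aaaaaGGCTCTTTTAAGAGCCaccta
Hist1h4d (H4, chr13:23581945-23581970, + strand): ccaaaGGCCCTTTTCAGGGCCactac
Hist1h4i (H4, chr13:22040961-22040986, - strand): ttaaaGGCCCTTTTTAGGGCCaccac

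What the annotation gives after the stem-loop differed widely between members. For 18 members over 200 bases followed it (840 for Hist1h1c, 1643 for Hist3h2a and 4884 for Hist1h1d), and for 26 members at most 200 bases (3 for Hist1h2ap). Another 8 members had bases after the stop codon but no stem-loop. The other 15 had no bases annotated after the coding sequence, among them Hist1h1b. Members also share sequence with one another. The share of a member's 31-base words found in another gene was 93.4% for Hist1h2ap, all of these in Hist1h2ao, 89.7% for Hist2h2aa1 and 100% for Hist2h3c1, against 3.93% for Hist1h1b. Reads of near-identical copies can be dropped or split in counting, so the levels of these members are uncertain, and so are those of Hist1h2be and Hist1h1e, whose annotated spans overlap on the same strand.

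The stretch upstream of the start was compared because the members of a family are known to be transcribed together. RefSeq gave a promoter (GRCm38.p6) for 61 members. Over the 250 bases before the start, on either strand, CCAAT was found in 82.0% of them, against 33.8% of all 32851 RefSeq promoters, TATAAA in 47.5% against 12.4%, AAACACA in 14.8% against 6.25% and ATTTGCAT in 21.3% against 1.60%. CCAAT was found in 6 of 6 H1, 17 of 17 H2A, 16 of 16 H2B, 8 of 10 H3 and 3 of 12 H4 promoters. AAACACA was found in 5 of 6 H1 promoters and in none of the H3 or H4 promoters, and ATTTGCAT in 7 H2A and 6 H2B promoters and in none of H1, H3 or H4. The windows of 18 members overlap that of another member, so these are not independent. A match is a string of letters, not a shown binding site. The 150 bases before the start of 6 members show the difference between families, with these motifs in capitals:
Hist1h1b (H1, chr13:21780626-21780775, - strand): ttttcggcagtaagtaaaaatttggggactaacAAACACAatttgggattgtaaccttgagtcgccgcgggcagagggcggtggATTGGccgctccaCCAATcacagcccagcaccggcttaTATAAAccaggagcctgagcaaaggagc
Hist1h1c (H1, chr13:23738657-23738806, + strand): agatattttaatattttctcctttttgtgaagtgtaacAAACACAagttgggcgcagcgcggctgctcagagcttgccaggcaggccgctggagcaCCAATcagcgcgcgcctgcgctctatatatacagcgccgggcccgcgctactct
Hist1h1e (H1, chr13:23622559-23622708, - strand): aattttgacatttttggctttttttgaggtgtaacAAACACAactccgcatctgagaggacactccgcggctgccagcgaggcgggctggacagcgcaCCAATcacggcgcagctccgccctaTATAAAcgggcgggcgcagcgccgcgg
Hist1h2ae (H2A, chr13:23571221-23571370, - strand): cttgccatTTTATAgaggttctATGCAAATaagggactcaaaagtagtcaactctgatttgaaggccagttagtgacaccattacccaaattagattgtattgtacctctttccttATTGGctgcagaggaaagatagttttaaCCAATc
Hist3h2a (H2A, chr11:58954535-58954684, + strand): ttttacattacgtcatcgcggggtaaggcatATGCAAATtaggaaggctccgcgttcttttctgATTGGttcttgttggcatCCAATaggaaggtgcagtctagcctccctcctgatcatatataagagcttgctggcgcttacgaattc
Hist1h4d (H4, chr13:23581418-23581567, + strand): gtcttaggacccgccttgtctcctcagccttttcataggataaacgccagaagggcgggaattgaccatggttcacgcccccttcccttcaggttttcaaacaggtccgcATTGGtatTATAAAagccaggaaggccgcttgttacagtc

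In these windows the 3 H1 genes hold AAACACA 112 to 117 bases before the start and CCAAT 52 to 54 bases before it. Hist1h1b and Hist1h1c, which have both motifs at nearly the same places, had different patterns over cell types, as described below.

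The members together gave 130327 UMIs in the kept cells, and few members gave most of them. Of the 67, 24 had at least 1000 UMIs, 52 at least 100, 13 from 1 to 99, and Hist2h2aa2 and Hist1h2ba had 0. Hist1h2ba is a histone gene of the testis, and Hist2h2aa2 shares every 31-base word with another gene. The 10 members with the most UMIs made up 75.4% of the total. Among linker histones these were Hist1h1b with 20413 UMIs (15.7%), Hist1h1c with 18461 (14.2%), Hist1h1d with 12853 and Hist1h1e with 5815. Hist1h1a had 3619 and the testis linker histone Hist1h1t had 7. The H2A members with the most UMIs were Hist3h2a (7821), Hist2h2aa1 (3024), Hist1h2ap (2904) and Hist1h2ae (2236). For H2B they were Hist1h2bc (12249), Hist1h2be (1844), Hist2h2bb (1752) and Hist2h2be (1068). For H3 they were Hist1h3c (6475), Hist2h3c1 (1112), Hist1h3d (1042) and Hist2h3c2 (1011), and for H4 Hist1h4d (5260), Hist1h4i (5253), Hist1h4h (1606) and Hist1h4c (1028). The 15 members under 100 UMIs shared a median of 87.5% of their 31-base words with another gene and had a median of 78 annotated bases after the stop codon, against 33.7% and 463 bases for the members with at least 1000 UMIs.

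Cells were grouped by clustering on other genes, with every histone member left out, and clusters were named from marker genes. Summed over the members, the level was highest in erythroid-like cells. It was 3146 (3115 to 3177) CPM over 2019 such cells of the wild-type-labelled library and 3214 (3125 to 3305) CPM in 261 cells of the SCD-labelled one. In B lymphocyte-like cells it was 267 (246 to 289) and 225 (215 to 235) CPM, and in Ly6c-high monocyte-like cells 249 and 177 CPM. Erythroid-like cells were 10.4% and 2.13% of the kept cells and held 37.3% and 20.8% of all histone UMIs.

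The erythroid-like class held a pair of clusters that differed widely in histone level in both libraries. In the cluster led by Hemgn and Rrm2, the latter a subunit of the enzyme that makes deoxyribonucleotides, the summed level was 3606 (3571 to 3643) CPM in 1378 cells and 3940 (3829 to 4053) CPM in 146 cells. In the cluster led by Xpo7 and Tmcc2 it was 481 (450 to 513) and 547 (470 to 632) CPM, in 641 and 115 cells. The S-phase genes of a fixed list (Mcm2, Mcm5, Pcna, Rrm2 and others) were at 10715 and 11462 CPM in the former cluster and at 849 and 239 CPM in the latter.

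**Figure D1:**
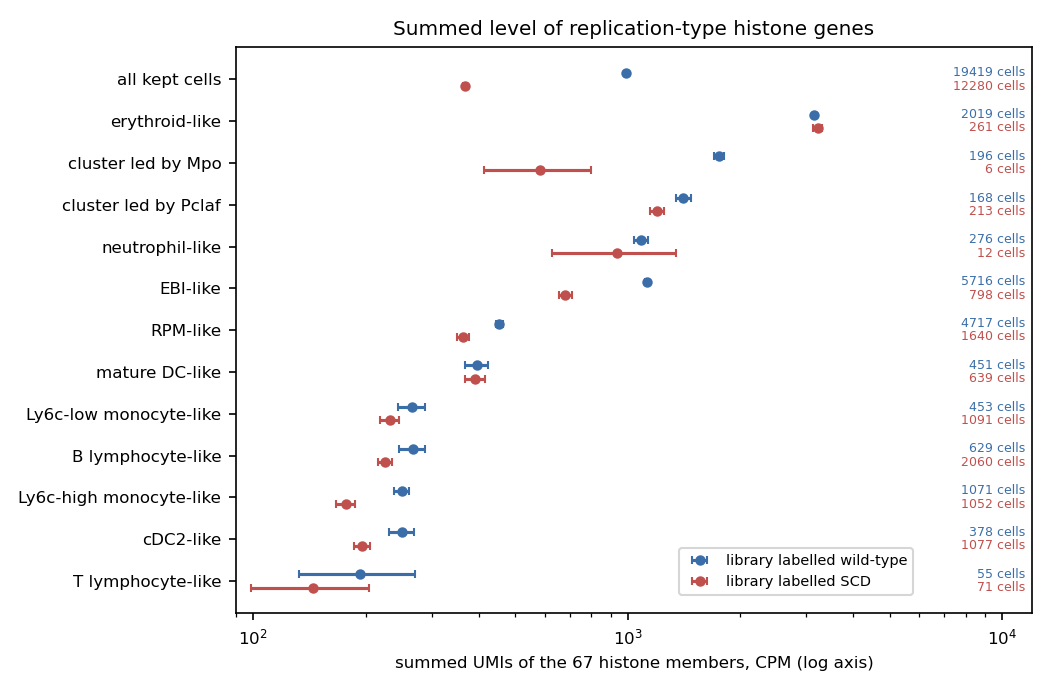
Summed level of the 67 histone members by cell class (vertical axis) in CPM on a log axis, with the wild-type-labelled library in blue, the SCD-labelled one in red, bars for 95% exact Poisson intervals and cell numbers at the right. Erythroid-like cells sit highest, at 3146 and 3214 CPM, and all kept cells lie at 991 and 369 CPM.

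Other classes with high levels were small. The cluster led by Mpo, Prtn3 and Elane, granule genes of early myeloid cells, was at 1757 (1703 to 1813) CPM in 196 cells of the wild-type-labelled library, and had 6 cells in the other library, at 583 (415 to 797) CPM. The cluster led by Pclaf, which encodes a partner of the replication clamp PCNA, was at 1407 (1343 to 1473) and 1195 (1145 to 1247) CPM in 168 and 213 cells. Neutrophil-like cells were at 1087 (1042 to 1134) CPM in 276 cells and at 937 (627 to 1345) CPM in 12 cells. Neither the Mpo-led nor the Pclaf-led cluster was given a class name. Among the 10 leading genes of the Mpo-led cluster, Ly6c-high monocyte markers (Ly6c2, F13a1 and Fn1) tied with progenitor markers (Mpo, Prtn3 and Elane). Such a tie left a cluster unnamed. The leading genes of the Pclaf-led cluster held no class marker.

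EBI-like cells, which carried markers of both red pulp macrophages and erythroid cells as in erythroblastic islands, were at 1124 (1113 to 1135) CPM in 5716 cells and 681 (655 to 709) CPM in 798 cells. Different clusters made up this class in the libraries, and 612 of its 798 cells in the SCD-labelled library were in a cluster led by Hbb-bs and Hbb-bt, at 306 (285 to 328) CPM, that had 10 cells in the other library. Of its clusters, the one led by Hemgn and Cpox was at 2114 (2090 to 2138) CPM in 1542 cells and 2045 (1943 to 2150) CPM in 91 cells. Its macrophage markers were at 4.03 times the level of the main B lymphocyte-like cluster, against a limit of 4 for the class. Its 10 leading genes (Hemgn, Cpox, Mki67, Tal1, Klf1, Aqp1, Ube2c, Dmtn, Cd24a and Sptb) held none of the macrophage markers, so its place in the class rested on a narrow margin. In this cluster 42.2% of cells had doublet scores past the cut. For its 1542 cells of the wild-type-labelled library the cut was the top 10% of scores, as the automatic threshold marked 0 cells there. The part of doublets in its histone level was not tested. The other EBI-like clusters with over 100 cells in the wild-type-labelled library were at 416 to 477 CPM there.

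RPM-like cells, with markers of red pulp macrophages alone, were at 454 (444 to 465) CPM in 4717 cells and 364 (350 to 378) CPM in 1640 cells. Most were in the clusters led by Marco and Cd5l (485 CPM) and by Abcc5 and Mertk (426 CPM) in the wild-type-labelled library, and in the cluster led by Rgs1 and Adamdec1 (361 CPM) in the SCD-labelled one. Mature DC-like cells were at 396 and 391 CPM, Ly6c-low monocyte-like cells at 265 and 231 CPM, cDC2-like cells at 249 and 195 CPM and T lymphocyte-like cells, 55 and 71 in number, at 193 and 145 CPM.

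Over all kept cells the summed level was 991 (985 to 997) CPM in the wild-type-labelled library and 369 (364 to 374) CPM in the SCD-labelled one, a log2 ratio of -1.43 (-1.45 to -1.41). All 5 families were lower in the SCD-labelled library: H1 was at 484 and 141 CPM, H2A at 143 and 84.6, H2B at 143 and 79.4, H3 at 98.4 and 25.0, and H4 at 123 and 38.5. The make-up of the libraries moved with this. When the level of each of 26 clusters was taken from the wild-type-labelled library and weighted by the other library's share of UMIs, the sum was 420 CPM. With the levels of the SCD-labelled library and the shares of the wild-type-labelled one it was 967 CPM. This last sum has no interval and rests in part on few cells. Clusters led by Marco, Abcc5 and Hspa1b had 3564, 1097 and 989 cells in the wild-type-labelled library. In the SCD-labelled one they had 38, 10 and 8. The S list was at 2430 and 1004 CPM and the G2/M list (Top2a, Mki67, Ccnb1 and others) at 4117 and 1225 CPM.

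Cells were then sorted by cycling state, from the UMIs of the S and G2/M lists after each cell was thinned to 1000 UMIs. No histone is in these lists. A cell passed if it had more than 4 S or more than 3 G2/M UMIs, the 99th percentile of the largest B lymphocyte-like cluster (the main B cluster) in each library. Cells with neither made up 79.7% and 95.4% of the 18387 and 11999 cells deep enough, and they held 27.0% and 63.1% of the histone UMIs. Cells past both limits, 1599 and 210, were at 3164 (3135 to 3193) and 2860 (2784 to 2938) CPM, and held 43.5% and 22.3% of the histone UMIs. Cells past the G2/M limit alone, 1831 and 250, were at 2127 and 1732 CPM, and those past neither limit at 377 (373 to 382) and 250 (247 to 254) CPM. The states are ranges of a score and not types: 730 and 164 cells had 4 or 5 S UMIs, and 1140 and 237 cells had 3 or 4 G2/M UMIs.

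Cells past the S limit alone were lower than those past both in the Pclaf-led cluster and over all kept cells. In the Pclaf-led cluster, 27 and 34 such cells were at 237 (166 to 327) and 100 (65.9 to 146) CPM, while its cells past both limits were at 1508 (1397 to 1626) and 1493 (1396 to 1595) CPM. The S list itself was at 7161 and 7693 CPM in the former and at 7459 and 8460 CPM in the latter, so cells with similar summed levels of Mcm2, Pcna and related genes differed widely in histone level in each library. Over all kept cells, those past S alone were at 928 (887 to 971) CPM in 297 cells and 268 (228 to 313) CPM in 90 cells. In EBI-like cells they were at 1099 CPM in 112 cells and at 2530 (1948 to 3230) CPM in 7 cells, and the latter value lay within counting error of the 2580 (2397 to 2774) CPM past both limits in that library.

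**Figure D2:**
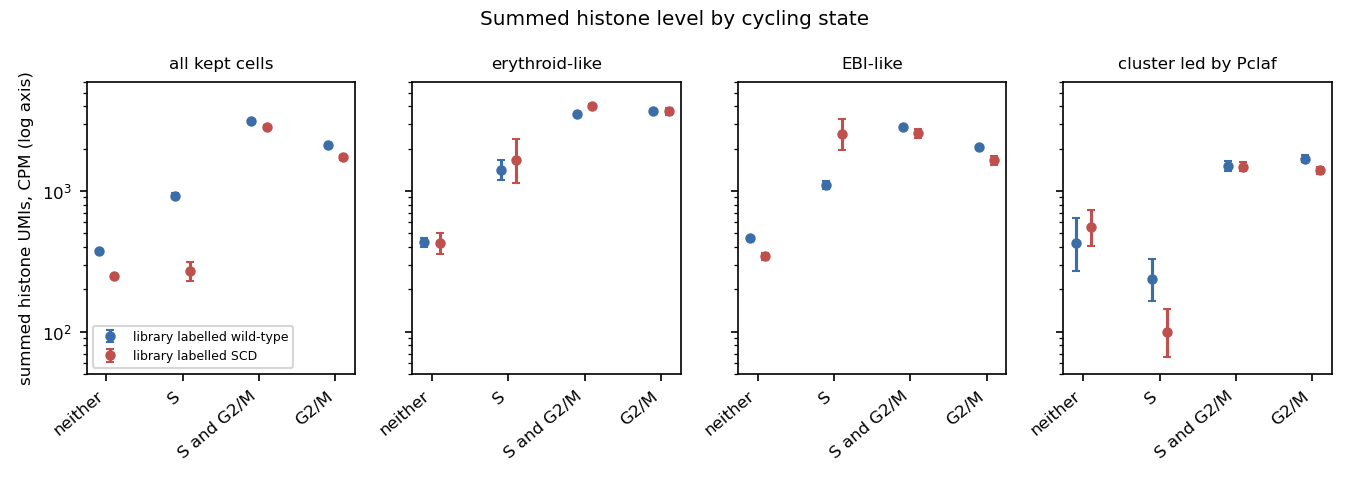
Summed histone level in CPM on a log axis by cycling state (horizontal axis) in 4 groups of cells, with the wild-type-labelled library in blue, the SCD-labelled one in red, and bars for 95% exact Poisson intervals. Cells past both limits or past G2/M alone are high in all 4 panels, and cells of the Pclaf-led cluster past S alone are low, at 237 and 100 CPM.

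Erythroid-like cells of the libraries lay close within the states given here, which leave out cells past S alone. Past both limits they were at 3522 (3482 to 3563) and 4012 (3882 to 4145) CPM, past G2/M alone at 3707 and 3683 CPM, and past neither at 433 (402 to 467) and 425 (355 to 505) CPM. In the first of these states the level was higher in the SCD-labelled library, beyond counting error. In EBI-like cells the SCD-labelled library was lower in 3 states, at 2863 and 2580 CPM past both limits, 2044 and 1649 past G2/M alone and 463 and 343 past neither, and higher past S alone (1099 and 2530 CPM, the latter in 7 cells).

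The members differed in how far they followed the cycling state. The level in cells past the S limit, with or without G2/M, was set against that in cells past neither limit, within a library. All kept cells were pooled unless a class is named. The cell types differed between the states, so state and cell type cannot be told apart in the pooled ratios. In the wild-type-labelled library 39 of the 44 members with at least 100 UMIs in these cells were at least 2-fold higher and 1 was at least 2-fold lower, against 15% and 30.6% of the 12169 genes tested, and the median log2 ratio was 4.45 against -0.34 over all genes. In the SCD-labelled library 20 of 25 were higher and 1 lower, against 12.3% and 22.1%. By family in the wild-type-labelled library, 4 of 5 H1, 8 of 9 H2A, 10 of 11 H2B, 7 of 9 H3 and 10 of 10 H4 members were at least 2-fold higher. In EBI-like cells of that library, 24 of 29 members were at least 2-fold higher and 0 lower, against 16.0% and 12.5% of genes.

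Most of the members with many UMIs were far lower in cells of neither state. Hist1h3c, the H3 member with the most UMIs, was at 195 CPM in S cells and 3.56 CPM in cells of neither state in the wild-type-labelled library, and at 106 and 0.315 CPM in the SCD-labelled one. Hist1h1b, a linker histone, was at 735 and 16.4 CPM in the former library and at 444 and 1.89 CPM in the latter. Hist1h1d was at 395 and 12.9 CPM and at 329 and 7.71 CPM, and Hist1h4d was at 134 and 5.95 CPM and at 93.5 and 5.60 CPM. For these 4 members the log2 ratio lay between 4.06 and 8.39 in the libraries.

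A small set of members did not follow this over the pooled cells, where state and cell type cannot be told apart. Hist3h2a, an H2A gene on chromosome 11, was at 28.7 CPM in S cells and 48.8 CPM in cells of neither state in the wild-type-labelled library, and at 25.6 and 44.7 CPM in the SCD-labelled one, log2 ratios of -0.77 (-0.91 to -0.63) and -0.80 (-1.19 to -0.44). The H2B gene Hist1h2bc was at 49.8 and 87.1 CPM and at 40.7 and 56.1 CPM. The H3 gene Hist2h3c2 was at 3.30 and 7.24 CPM and at 1.63 and 5.12 CPM, and Hist2h3c1 was at 6.59 and 7.36 CPM and at 3.25 and 5.04 CPM. These 4 were lower in S cells than in cells of neither state in both libraries, by values whose intervals reach 0 for Hist2h3c1. The linker histone gene Hist1h1c stood between, with 194 against 98.6 CPM and 137 against 69.1 CPM, log2 ratios of 0.98 and 0.99.

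Members were also grouped by annotated 3′ end, and S cells were set against cells of neither state. In the wild-type-labelled library the summed levels were 872 and 20.7 CPM for members with no bases annotated after the coding sequence. They were 586 and 21.8 CPM for those with a stem-loop and at most 200 bases after it. For those with over 200 bases after it they were 1194 and 240 CPM, and for those with no stem-loop found 238 and 94.5 CPM. In the SCD-labelled one the same sums were 543 and 3.61, 603 and 13.5, 899 and 171, and 190 and 62.2 CPM. Members with a longer annotated 3′ end thus held most of the histone UMIs of cells outside the cycling states, with Hist1h1c and Hist3h2a the main ones. Hist1h2bc held most of those of the members with no stem-loop found. Of the sums for members with no bases annotated after the coding sequence, Hist1h1b held most in either state and library.

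The same split was seen over clusters. Across 38 groups of at least 100 cells (a cluster in a library), the summed histone level had a Pearson correlation of 0.95 on the log2 scale with the S and G2/M lists. This is a description over groups that share 2 libraries and their free RNA. Hist1h3c (0.96), Hist1h2ae (0.96), Hist1h1d (0.96) and Hist1h1b (0.94) followed the lists, Hist1h1c less so (0.52), and Hist2h3c1 (-0.17), Hist1h2bc (-0.23), Hist2h3c2 (-0.40) and Hist3h2a (-0.41) did not. Of the 52 members with at least 100 UMIs, 46 had their highest level in the erythroid-like cluster led by Hemgn and Rrm2, 30 of them in the SCD-labelled library. Hist1h2bc was highest in the RPM-like cluster led by Marco and Cd5l, at 135 CPM, and Hist3h2a in the RPM-like cluster led by Rgs1 and Adamdec1, at 82.9 CPM.

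**Figure D3:**
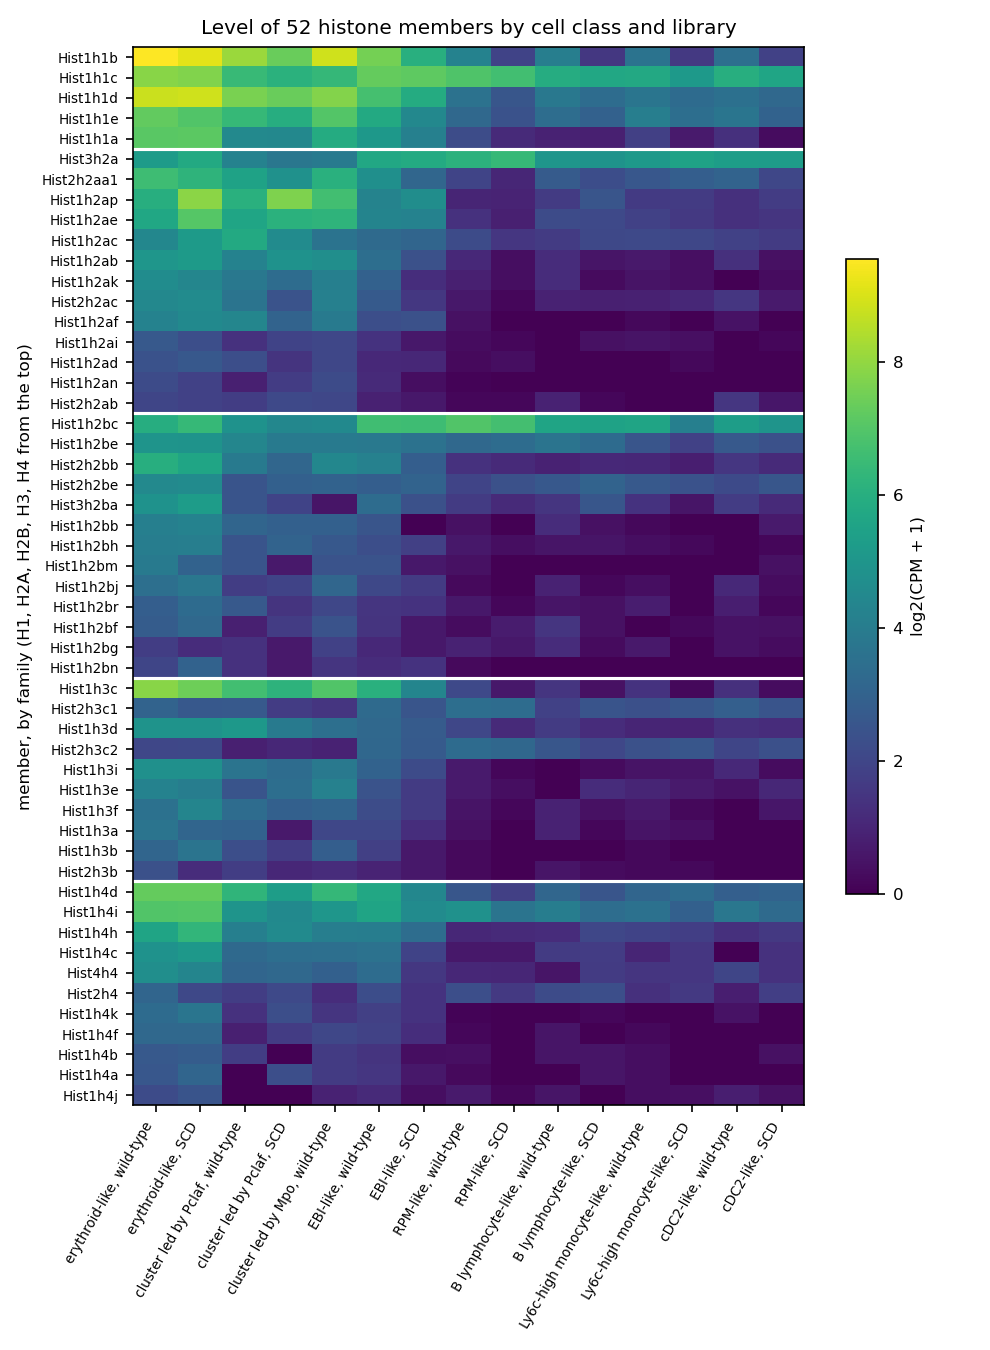
Level of the 52 members with at least 100 UMIs (rows, by family from H1 at the top to H4, separated by white lines) as log2(CPM + 1) in cell classes and libraries (columns). Hist1h1b and Hist1h3c are brightest in the erythroid-like columns, Hist1h2ap is brightest in the SCD-labelled erythroid-like and Pclaf columns, and Hist1h1c, Hist3h2a and Hist1h2bc are among the brightest rows of the RPM-like columns.

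In RPM-like cells, nearly all of which were past neither limit, Hist1h2bc was at 123 CPM in the wild-type-labelled library and 104 CPM in the SCD-labelled one, Hist1h1c at 121 and 101 CPM, and Hist3h2a at 70.4 and 82.9 CPM. These 3 members made up most of the class's histone level. In erythroid-like cells the same members were at 61.6 and 83.3 CPM, 228 and 212 CPM, and 37.3 and 54.9 CPM. Hist1h2bc and Hist3h2a were thus higher in RPM-like than in erythroid-like cells in both libraries, while the summed level went the other way.

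Over all kept cells, 42 of the 52 members with at least 100 UMIs were at least 2-fold lower in the SCD-labelled library and 0 at least 2-fold higher, against 9.78% and 12.0% of the 13015 genes tested. Lower were 4 of 5 H1, 10 of 13 H2A, 10 of 13 H2B, 8 of 10 H3 and 10 of 11 H4 members. The smallest ratio was that of the H2B gene Hist1h2bm (3.49 CPM to 0.262 CPM, log2 -3.74), followed by Hist1h3a (2.81 to 0.370 CPM, -2.93) and Hist1h3c (55.8 to 7.55 CPM, -2.88). The largest was that of Hist3h2a (46.1 to 44.4 CPM, -0.05 with an interval of -0.12 to 0.01). Hist2h2be (-0.17), Hist1h2ap (-0.26), Hist2h3c2 (-0.39) and Hist1h2bc (-0.52) were next. Of the fixed lists, 28 of 35 S genes and 35 of 39 G2/M genes were also at least 2-fold lower.

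The ratio was looked at within cell types for this reason. In the erythroid-like cluster led by Hemgn and Rrm2, whose cells were almost all in a cycling state, 2 of 37 members were at least 2-fold higher in the SCD-labelled library and 0 lower, against 0.796% and 4.62% of 7667 genes, with a median of 0.19 against -0.09 for all genes. Both were H2A genes. Hist1h2ap was at 72.9 CPM (784 UMIs) in the wild-type-labelled library and 300 CPM (365 UMIs) in the SCD-labelled one, a log2 ratio of 2.04 (1.86 to 2.22). Hist1h2ae was at 59.4 CPM (639 UMIs) and 164 CPM (200 UMIs), a ratio of 1.47 (1.23 to 1.70).

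In sum, H2A was at 439 and 801 CPM in this cluster, a log2 ratio of 0.87 (0.77 to 0.97). Without Hist1h2ap and Hist1h2ae the H2A sum was at 307 and 337 CPM, a ratio of 0.13 (-0.02 to 0.28), so these 2 members held most of the difference. H1 was at 1966 and 1836 CPM (-0.10), H2B at 312 and 354 CPM (0.18), H3 at 409 and 371 CPM (-0.14) and H4 at 480 and 578 CPM (0.27). Not all H2A genes shared the direction: Hist2h2aa1 was at 111 and 89.6 CPM, a ratio of -0.31 (-0.61 to -0.03). Other members whose intervals lay above 0 were Hist1h3f (0.97), Hist1h4h (0.86), Hist1h2ac (0.84), Hist3h2a (0.52), Hist3h2ba (0.51), Hist1h2bc (0.46) and Hist1h1d (0.17). Hist1h1b (877 and 718 CPM, -0.29) and Hist1h3c (268 and 219 CPM, -0.29) had intervals below 0, and the smallest ratio was that of Hist1h2bm (16.2 and 9.04 CPM, -0.84 with an interval of -1.87 to 0.04).

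Over the erythroid-like class as a whole, 2 of 39 members were at least 2-fold higher and 1 lower in the SCD-labelled library, against 0.811% and 5.84% of 8013 genes. Hist1h2ap was at 62.5 and 236 CPM (1.92, interval 1.74 to 2.10) and Hist1h2ae at 51.1 and 130 CPM (1.35). When the libraries were clustered separately, which gave the class 2996 and 545 cells, these ratios were 1.15 and 0.52. The lower one was Hist2h4, at 7.77 and 3.23 CPM, on 98 and 5 UMIs (-1.27, interval -2.92 to 0.01). None of the 35 S genes or 39 G2/M genes was past 2-fold in either direction in this class, and the lists were at 9261 and 9062 CPM and at 16010 and 17055 CPM.

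**Figure D4:**
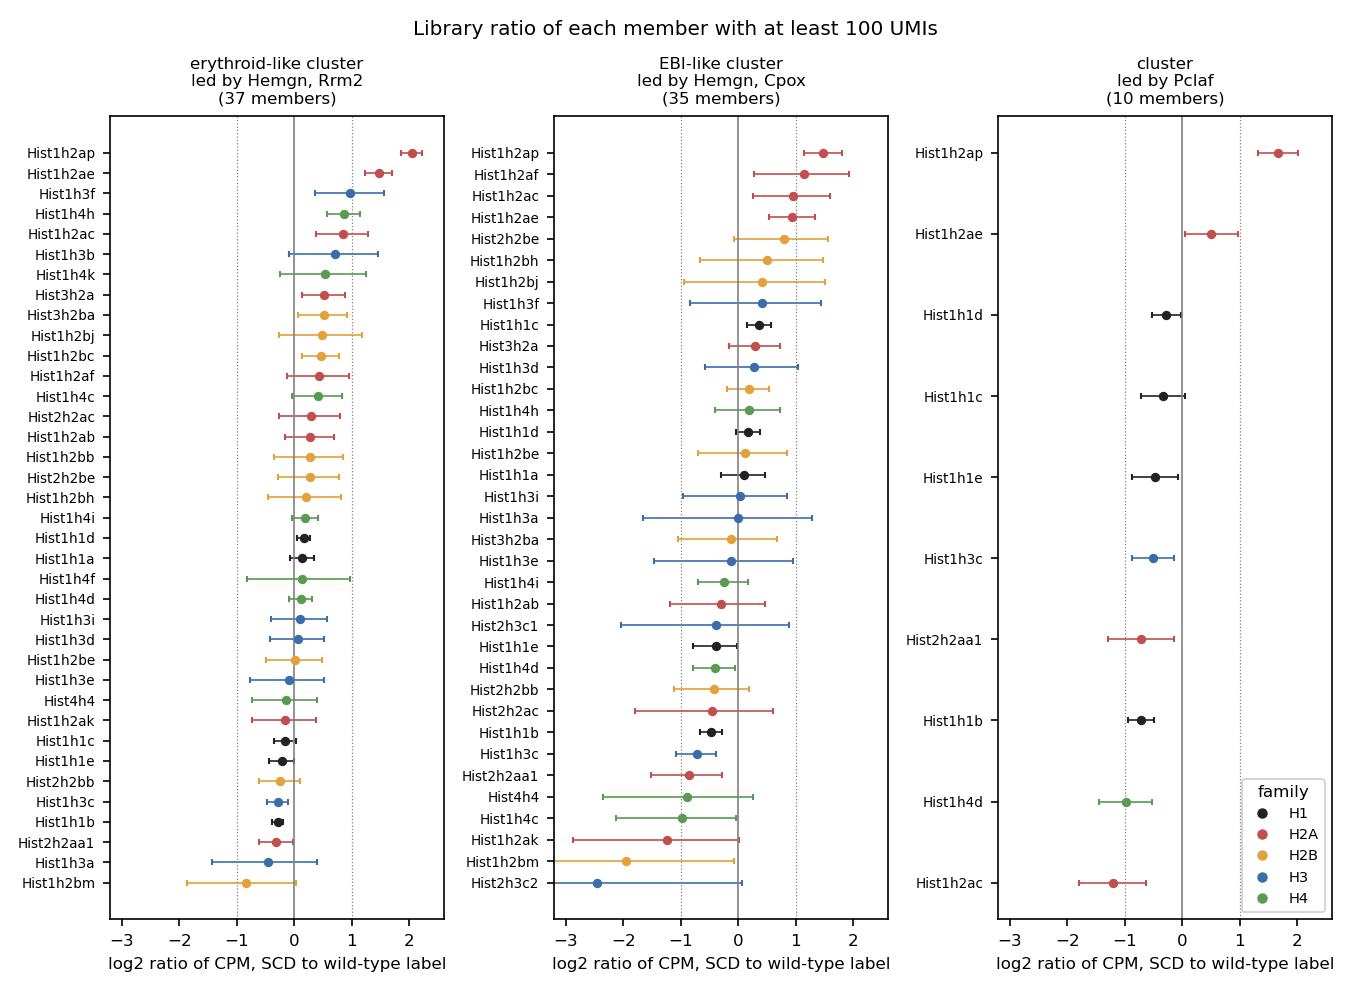
Log2 ratio of CPM, SCD-labelled to wild-type-labelled library (horizontal axis), of each member with at least 100 UMIs and a UMI in both libraries in 3 clusters, coloured by family, with bars for 95% exact intervals and dotted lines at 2-fold. Hist1h2ap is the highest in all 3 panels, at 2.04, 1.47 and 1.66, and the lower bounds of Hist2h3c2 and Hist1h2bm run past the axis in the middle panel.

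Hist1h2ap was also higher in the SCD-labelled library in 2 other clusters. In the EBI-like cluster led by Hemgn and Cpox it was at 43.6 CPM (623 UMIs) and 121 CPM (90 UMIs), a ratio of 1.47 (1.14 to 1.79). In the Pclaf-led cluster it was at 65.9 CPM (85 UMIs) and 208 CPM (372 UMIs), a ratio of 1.66 (1.31 to 2.01). Over all cells past the S limit it was at 63.0 and 208 CPM (1.72, interval 1.57 to 1.88), and was the 1 member of 41 at least 2-fold higher, against 9.1% of genes, while 2 were lower (Hist1h2bm and Hist2h3c1), against 4.49%. Over all cells past neither limit it was at 1.43 and 1.94 CPM (0.44, interval 0.05 to 0.83). There 0 of 26 members were at least 2-fold higher and 6 lower (Hist1h3c, Hist1h1b, Hist1h1a, Hist2h2bb, Hist1h4i and Hist1h1e), against 9.81% and 8.16% of genes. The main B cluster, taken as the measure of free RNA, had Hist1h2ap at 2.91 and 5.50 CPM. The levels of Hist1h1b past neither limit were about those of the main B cluster in each library, and so near background. For the others of the 6 lower members that comparison is not given here. Hist1h2ao, its nearest copy, had 4 and 2 UMIs over all kept cells, and whether reads of other copies entered the count of Hist1h2ap was not tested.

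In that EBI-like cluster 2 of 36 members were at least 2-fold higher and 4 lower in the SCD-labelled library, against 4.11% and 6.21% of 9230 genes. Higher beside Hist1h2ap was Hist1h2af (9.10 and 20.2 CPM, 1.15 with an interval of 0.27 to 1.92), and Hist1h2ac (0.95) and Hist1h2ae (0.94) came next, all of them H2A genes. The lower ones rested on few UMIs in the SCD-labelled library: Hist2h3c2 on 1, Hist1h2bm on 2, Hist1h2ak on 5 and Hist1h2bb on 0, against 105, 149, 226 and 147. Hist1h2bb was thus lower by a log2 ratio of at least 1.35 when 0 is read as up to 3 UMIs, over the cluster in that library.

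In the Pclaf-led cluster 1 of 10 members was at least 2-fold higher and 1 lower, against 0.413% and 0.864% of 5327 genes. The lower one was another H2A gene, Hist1h2ac, at 54.3 and 23.5 CPM (-1.21, interval -1.80 to -0.64), which had been higher in the erythroid-like cluster. Hist1h2ae was at 48.1 and 68.2 CPM (0.50, interval 0.05 to 0.97), Hist1h1b at 274 and 166 CPM (-0.72) and Hist1h4d at 76.0 and 38.5 CPM (-0.98). In sum, H2A was at 309 and 401 CPM and H1 at 665 and 481 CPM.

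In EBI-like cells as a class, 17 of 37 members were at least 2-fold lower and 0 higher in the SCD-labelled library, against 6.48% and 4.53% of 10730 genes. The clusters that made up the class differed between the libraries, as given above. Here Hist1h2bm was at 4.48 and 0.550 CPM (-3.03), Hist1h3c at 65.5 and 19.5 CPM (-1.75) and Hist1h1b at 188 and 64.9 CPM (-1.54). Hist1h1c (156 and 146 CPM, -0.10), Hist1h2bc (96.9 and 94.6 CPM, -0.03) and Hist3h2a (52.5 and 56.9 CPM, 0.12) had intervals that held 0.

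In RPM-like cells 3 of 11 members were at least 2-fold lower and 0 higher, against 4.22% and 8.93% of 9993 genes. They were Hist1h1b (18.0 and 2.78 CPM, -2.69), Hist1h4i (27.5 and 11.6 CPM, -1.24) and Hist1h1d (11.2 and 4.90 CPM, -1.20). The level of Hist1h1b was about that of the main B cluster, at 17.5 and 2.33 CPM, and Hist1h1d was at 15.3 and 9.33 CPM there, so for these 2 the level in RPM-like cells was at or near background. Hist3h2a, at 70.4 and 82.9 CPM, lay above its 24.8 and 26.8 CPM of the main B cluster, and Hist1h2bc, at 123 and 104 CPM, above 47.4 and 45.7 CPM. Both members thus stood above the level of the main B cluster in each library.

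In Ly6c-high monocyte-like cells Hist1h2bc was at 47.3 and 16.5 CPM, a ratio of -1.52 (-1.85 to -1.21), and was the 1 member of the 7 tested past 2-fold, where 2.29% of genes were at least 2-fold higher and 3.7% lower. These levels were at and below the 47.4 and 45.7 CPM of the main B cluster. In the SCD-labelled library the main B cluster thus stood above this class, so its level of Hist1h2bc may hold more than free RNA. The share of free RNA in either group is not known and was not tested. In mature DC-like cells, where 0 of 3 members and 2.16% (higher) and 5.52% (lower) of genes were past 2-fold, it was at 83.1 and 124 CPM (0.58, interval 0.30 to 0.86). In Ly6c-low monocyte-like cells, where 0 of 3 members and 3.02% and 2.38% of genes were past 2-fold, it was at 68.2 and 45.6 CPM (-0.58). In cDC2-like cells, where 0 of 4 members and 1.66% and 1.89% of genes were past 2-fold, it was at 39.2 and 30.1 CPM (-0.38). None of the 6 members tested in B lymphocyte-like cells was past 2-fold, where 0.979% of genes were at least 2-fold higher and 1.61% lower.

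Of other genes of histone supply, the replacement histones, which are made outside S phase too, were examined as a list of 11. Over all kept cells 0 of the 10 with at least 100 UMIs were at least 2-fold higher and 2 lower, against 12.0% and 9.78% of genes: Cenpa (107 and 38.0 CPM), the H3 form of centromeres, and H2afx (99.1 and 43.3 CPM), the H2A form marked at DNA breaks. H3f3a (1252 and 1379 CPM) and H2afz (751 and 602 CPM), which encode forms of H3 and H2A, were within 2-fold. In the list's sum the libraries were at 3364 and 3337 CPM, against the 991 and 369 CPM of the replication-type members. Set by cycling state in the wild-type-labelled library, 6 of 9 were at least 2-fold higher in S cells than in cells of neither state, against 15% of genes, with 245 and 20.4 CPM for H2afx and 2222 and 910 CPM for H3f3a. One of the 6, Cenpa, is in the G2/M list that helped to set the states, so its own ratio is not given. Without it the count was 5 of 8, with 0 lower. In the SCD-labelled library, without Cenpa, 3 of 8 were at least 2-fold higher and 1 lower, against 12.3% and 22.1% of genes. In the erythroid-like cluster led by Hemgn and Rrm2, 1 of 9 was at least 2-fold lower between the libraries, against 4.62% of genes: H1f0, a linker histone of cells that have stopped dividing, at 24.0 CPM (258 UMIs) and 3.29 CPM (4 UMIs).

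The list of histone mRNA 3′ end processing and transcription held 17 genes, of which 3 of 16 were at least 2-fold lower in the SCD-labelled library over all kept cells and 0 higher, against 9.78% and 12.0% of genes. They were Slbp (251 and 122 CPM), which binds the stem-loop, and the cyclins of S-phase entry Ccne1 (36.3 and 7.80 CPM) and Ccne2 (67.3 and 13.7 CPM). Npat, the transcription factor of histone clusters, was at 25.7 and 20.4 CPM (-0.33). In S cells against cells of neither state 10 of 16 were at least 2-fold higher in the wild-type-labelled library, against 15% of genes, among them Ccne2 (359 and 9.01 CPM); Npat was at 67.1 and 16.8 CPM. One of the 10, Slbp, is in the S list that set the states, and without it the count was 9 of 15. In the erythroid-like cluster led by Hemgn and Rrm2, none of 13 was past 2-fold between the libraries, where 0.796% of genes were higher and 4.62% lower, and Slbp was at 1093 and 1220 CPM.

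The list of histone chaperones, which carry histones to DNA, held 12 genes, of which 3 were at least 2-fold lower and 0 higher over all kept cells, against 9.78% and 12.0% of genes: Asf1b (72.9 and 19.8 CPM), Chaf1a (36.4 and 8.58 CPM) and Chaf1b (14.2 and 3.78 CPM). Of the 12, 10 were at least 2-fold higher in S cells than in cells of neither state in the wild-type-labelled library, against 15% of genes, with 279 and 12.9 CPM for Asf1b. One of the 10, Chaf1b, is in the S list, and without it the count was 9 of 11. In the erythroid-like cluster led by Hemgn and Rrm2, 0 of 12 were past 2-fold between the libraries, where 0.796% of genes were higher and 4.62% lower, and Asf1b was at 312 and 287 CPM.

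Among the 9908 other genes with at least 1000 UMIs, the levels most like the summed histone level over the 38 groups, by Pearson correlation of log2(CPM + 1), were those of Depdc1a (0.956), Ube2s (0.956), Kifc1 (0.954) and Ncaph (0.946), followed by Kif14, Pif1, Spc25, Ska1, Prr11 and Aurka (0.941). Kifc1 encodes a spindle motor, Ncaph a condensin subunit and Aurka a mitotic kinase.

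Counted by cells and thinned to 1000 UMIs each, 38.2% (37.5 to 38.9) of cells of the wild-type-labelled library and 22.8% (22.0 to 23.5) of the SCD-labelled one had at least 1 histone UMI. Without thinning the shares were 71.7% and 60.3%. The thinned shares of the main B cluster were 21.0% (17.5 to 24.7) and 18.0% (16.2 to 19.9), at median depths of 2206 and 2911 UMIs before thinning. In erythroid-like cells they were 70.0% (67.9 to 72.0) and 63.2% (57.1 to 69.1), at 5011 and 4834 UMIs. In EBI-like cells they were 43.7% and 28.1%, in RPM-like cells 36.2% and 28.8%, and in Ly6c-high monocyte-like cells 20.7% and 16.5%, the last at the level of the B cluster.

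With a limit of 3 histone UMIs the classes stood further apart. In the erythroid-like cluster led by Hemgn and Rrm2, 62.0% (59.3 to 64.5) and 63.0% (54.6 to 70.9) of thinned cells passed it, and in the EBI-like cluster led by Hemgn and Cpox 29.6% (27.3 to 32.0) and 28.1% (19.1 to 38.6). In the Pclaf-led cluster 21.6% and 16.3% passed. In RPM-like cells the shares were 1.71% and 1.07%, and those of the main B cluster 0 of 520 cells (exact binomial interval up to 0.707%) and 0.231% of 1732 cells.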

How the data were processed

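The deposited files hold UMI counts per gene and barcode, not normalized, for 2 libraries. Per the labels and the study's methods, the authors aligned reads to the mouse genome with Cell Ranger (version 4.0.0 in the submitters' processing notes, 3.1.0 in the matrix headers), which collapses reads with the same UMI and may drop reads that fit several genes. Columns of other samples numbered 0.

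A barcode was kept if it had between 500 and 5000 genes, less than 15% of its UMIs in mitochondrial genes and less than 30% in ribosomal-protein genes. Both libraries were clustered together (scanpy 1.11.5, Leiden, resolution 1, 30 components, 15 neighbours) on 2000 variable genes. The histone members, 7 heme and iron genes, the hemoglobin genes and a set of sex-linked genes were left out of clustering. An RPM-like cluster needed macrophage markers at a median of 4 times the level of the main B lymphocyte-like cluster. At least 3 of them had to be found in 10% of its cells. An EBI-like cluster also needed erythroid markers at 2 times that level, with the same detection rule. Other names, erythroid-like among them, needed 3 markers in 10% of cells at 2 times the level of all other cells. A name was withheld where the 10 leading genes held more markers of another type. Outside the erythroid-like, EBI-like and RPM-like classes a tie was enough to withhold it. Scrublet's automatic threshold marked 0 of 19419 cells in the wild-type-labelled and 1746 of 12280 in the SCD-labelled library. It had thus not worked in the former, and doublets were left in, with the top 10% of scores there removed in an alternative.

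UMIs were summed per cell group and divided by the group's total (CPM). Genes needed 100 UMIs in the compared cells to be counted, and a 2-fold difference was called. Members were named by rule: in each family the 4 with the most UMIs, and the largest and smallest library ratios. Others were named after their values were seen. The members and lists were chosen with earlier results of these data known. On simulated counts for the erythroid-like comparison (8013 genes), 95.5% of intervals held the true ratio. The counts were drawn from the Poisson model that the intervals assume. This checks the calculation only, and not variation between cells or mice. Alternatives covered normalization, filters, clustering, doublets and state limits. R 4.3.3 with scran 1.30.0 gave the cell factors by which counts were scaled before every clustering. In 1 alternative these factors were used for the levels too.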

Additional observations from a re-analysis of the deposited data

Results flagged for a closer look

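Hist1h4h, an H4 member, had ratios of opposite sign in the 2 classes richest in histone UMIs. The log2 ratio of the SCD-labelled to the wild-type-labelled library was 0.74 (46.5 to 77.5 CPM) in erythroid-like cells and -0.68 (15.4 to 9.62 CPM) in EBI-like cells. Each class had 1 library per condition, so the difference between the ratios was not tested. The clusters that made up the EBI-like class differed between the libraries. With the libraries clustered separately, the ratio in erythroid-like cells was -0.083, so the opposite sign did not hold there.

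Histone UMIs were also plentiful in barcodes that the filter left out for holding over 5000 genes. The 1112 such barcodes of the wild-type-labelled library had a summed level of 1234 (1221 to 1246) CPM, above the 991 CPM of its kept cells. The 175 of the SCD-labelled library had 785 (760 to 811) CPM, above 369 CPM. Barcodes with so many genes can hold more than 1 cell, and this was not tested here.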

How the results depend on the processing

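No paired analysis was possible because each condition had 1 library, and for the same reason no replicate could be left out. Over all alternatives, 54 of 58 summed ratios and 109 of 133 member ratios kept their direction. The ratio of the summed level between libraries (log2 -1.43) was -1.22 as a mean over cells, -1.18 with scran factors, -1.24 without Hist1h1b, -1.75 without Hist1h1c, Hist1h2bc, Hist2h2be and Hist1h4h, and -1.38 without doublets. In erythroid-like cells (0.03) it turned to -0.11 as a mean over cells, -0.42 with scran factors and -0.54 with the libraries clustered separately, and was 0.14 with another denominator (no hemoglobin, immunoglobulin, mitochondrial or ribosomal-protein genes), 0.15 without Hist1h1b and 0.13 at resolution 0.5, so it has no settled direction. In EBI-like cells (-0.72) it was -0.60 with that denominator, -0.65 as a mean over cells, -0.60 without Hist1h1b, -1.0 without the 4 members, -0.90 without doublets, -0.52 at resolution 2 and -0.49 with histones among the clustering genes. In RPM-like cells (-0.32) it was -0.43 without the 4 members. The ratio of S cells to cells of neither state in the wild-type-labelled library (2.94) was 2.97 with that denominator, 3.0 with scran factors, 2.58 without Hist1h1b, 3.79 without the 4 members, 3.01 without doublets, 2.88 at the 95th percentile and 3.01 at 2000 UMIs. In the SCD-labelled library (3.16) it was 3.09 as a mean over cells, 3.28 with scran factors, 2.85 without Hist1h1b, 4.08 without the 4 members, 3.24 without doublets and 2.98 at the 95th percentile. With no minimum of UMIs beyond more than 3 in either group, the members at least 2-fold higher in S cells were 56 of 61 and 50 of 56 in place of 39 of 44 and 20 of 25, against 15.3% and 14.1% of genes. Those higher in the SCD-labelled library in erythroid-like cells were 5 of 61 in place of 2 of 39, against 5.73% of genes. With the libraries clustered separately the last count was 1, with log2 ratios of 1.15 for Hist1h2ap and 0.52 for Hist1h2ae, and that of Hist1h4h (0.74) turned to -0.083. Then the class held 2996 and 545 cells in place of 2019 and 261. The members at least 2-fold lower in EBI-like cells were 11 in place of 17 at resolution 0.5, with histones among the clustering genes, and with the libraries clustered separately. At 2000 UMIs the shares of cells with a histone UMI were 56.5% and 38.4% in place of 38.2% and 22.8%. Why these values moved was not tested, apart from the fewer or more members, cells or UMIs that a setting takes.

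The data are 1 mouse per condition, the β-globin genes go against the labels, and poly(A) priming captures an unknown part of each member's mRNA. Levels of members with near-identical copies are uncertain.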
